A study of Mus musculus with 4 samples.

Results

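The genes described here are 50 genes of the endoplasmic reticulum (ER) that were chosen by symbol: the machinery that moves new proteins into the ER, attaches sugars to them and folds them, and the sensors and regulators of the unfolded protein response. They are 50 of the 55401 genes counted, and all 50 symbols were found in GENCODE M21 (mouse, mm10). By role, 16 belong to the translocon and the signal peptidase, 7 to glycosylation, 18 to folding and 9 to stress regulation and ER-associated degradation (ERAD). The RNA came from the semimembranosus, a hamstring muscle, of C57BL/6 mice aged 8 weeks, and every library carried the same operation: the left external iliac vein was ligated over a 30-gauge needle to leave a stenosis. The IVS group (2 libraries) received saline through the stomach daily. The IVS_diosmin group (2 libraries) received diosmin, a flavonoid used as a drug for vein disease, at 40 mg/kg per day by the same route. There was no group without stenosis, and the labels do not say which leg was sampled, how many mice a library holds, or that replicates are separate animals. The p-values therefore describe the spread of these samples alone, and that spread may be technical.

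Proteins that are secreted or sit in membranes enter the ER through the SEC61 channel, lose their signal peptide, receive N-linked sugars from the oligosaccharyltransferase and are folded by chaperones and disulfide isomerases. When unfolded proteins accumulate, the sensors IRE1, PERK and ATF6 start a transcriptional programme in which the factors XBP1, ATF4 and ATF6 raise chaperones and ERAD genes. In a muscle fibre the same membrane system is continuous with the sarcoplasmic reticulum, which stores calcium and holds several of the same calcium-binding chaperones.

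Gene counts ran from 13056650 to 15324354 per library. The libraries held the markers of fast muscle (all 8 listed genes, summing to 92390 to 106600 CPM, the count scaled to a common library size). Several other measures separated the same groups. The rRNA gene CT010467.1 took 4.14% and 3.80% of gene counts in the IVS libraries and 1.16% and 0.936% in the diosmin libraries, and Rn7sk, an abundant nuclear RNA, was at 34.6 and 33.5 against 11.9 and 5.97 CPM. Mitochondrially encoded genes took 31.5% and 38.5% of gene counts in IVS and 45% and 40.7% with diosmin. The nuclear RNA Neat1 was at 2583 and 2299 against 4971 and 3210 CPM, and Malat1, at 261 to 440 CPM, overlapped. All 10 endothelial markers had lower values with diosmin (summed 534 and 570 against 308 and 276 CPM, none of the 10 at 0). In edgeR's test 5 were called lower at an adjusted p under 0.05 and 5 were not, where 1.78% of all tested genes were called lower. The median log2 fold change of the 10 (diosmin minus IVS) was -0.96, close to that of the folding genes below. All 5 slow fibre markers were higher (12.9 and 18.1 against 2493 and 979 CPM). Ighm, an immunoglobulin heavy chain gene of B and plasma cells, was at 14.4 and 18.9 against 91.1 and 174 CPM, and Cd79a, a defining B cell marker, at 0 to 0.163 CPM. None of 8 fibroblast and none of 8 macrophage markers passed (1 and 0 had an unadjusted p under 0.05), and the fibroblast sum was 99.9 and 181 against 191 and 148 CPM. The part of these measures in the results below was not tested. In bulk RNA, fewer cells of a type and less RNA per cell cannot be told apart.

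The ER stress response element is the site through which ATF6 and XBP1, with the factor NF-Y, switch on chaperone genes: CCAAT, then 9 bases, then CCACG. It was searched on both strands of RefSeq promoter windows (GRCm38.p6, 250 bases before to 50 after a start), in which 41 of the 50 genes had an entry. Atf6, Hyou1, Manf, Ostc, Sec11c, Sec61a1, Spcs3, Ssr2 and Tram1 were not matched. The element was present in 9 of these 41 genes (22%), against 37 of 27025 genes in the table (0.137%). The genes were chosen for folding and for this response, so the contrast is not independent of the choice. A shorter form, ATTGG, any 1 base, then CCACG, was in 2 more (Herpud1 and Dnajb11; 0.0444% of all genes). The matches are shown because they mark which members carry an exact copy in the window searched. Sites with a mismatch or outside the window were not counted, and binding was not tested. Each match is turned to read from CCAAT or ATTGG to CCACG, with these fixed bases in capitals and 5 bases on either side.
Hspa5: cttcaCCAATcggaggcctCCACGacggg
Hsp90b1, first: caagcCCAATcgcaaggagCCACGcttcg
Hsp90b1, second: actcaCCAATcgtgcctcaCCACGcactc
Calr: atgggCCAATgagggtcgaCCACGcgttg
Canx: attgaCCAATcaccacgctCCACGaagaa
Pdia6: agagaCCAATgaaaggcggCCACGgcgtg
Dnajc3: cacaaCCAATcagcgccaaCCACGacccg
Creld2: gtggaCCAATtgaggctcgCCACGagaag
Ero1lb: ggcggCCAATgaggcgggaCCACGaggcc
Syvn1: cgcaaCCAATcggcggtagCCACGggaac
Herpud1: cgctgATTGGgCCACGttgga
Dnajb11: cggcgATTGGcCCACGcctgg

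The 9-base spacers held 6 or 7 G or C bases in every one of the 10 full elements. Of the 9 genes with the full element, 8 code for folding proteins and 1, Syvn1, for an ERAD ligase. None of the translocon or oligosaccharyltransferase genes with an entry had it. The elements lay between 26 and 212 bases upstream of the RefSeq start. In Hspa5 the element covered bases 65 to 47 upstream, at chr2:34772025-34772043 on the plus strand. Hsp90b1 was the member with 2 matches, at bases 212 to 194 and 107 to 89 upstream of its start on the minus strand of chromosome 10. The 250 bases before the starts of both genes are given with the fixed bases in capitals as they read on the gene's strand, where a CGTGG before an ATTGG is an element on the opposite strand. They cover chr2:34771840-34772089 for Hspa5 and chr10:86705445-86705694 for Hsp90b1.
Hspa5: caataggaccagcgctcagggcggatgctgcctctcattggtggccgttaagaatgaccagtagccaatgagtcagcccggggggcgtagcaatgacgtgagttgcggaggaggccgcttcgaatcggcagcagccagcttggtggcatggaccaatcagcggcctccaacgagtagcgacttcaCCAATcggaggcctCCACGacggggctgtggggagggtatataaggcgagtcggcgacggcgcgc
Hsp90b1: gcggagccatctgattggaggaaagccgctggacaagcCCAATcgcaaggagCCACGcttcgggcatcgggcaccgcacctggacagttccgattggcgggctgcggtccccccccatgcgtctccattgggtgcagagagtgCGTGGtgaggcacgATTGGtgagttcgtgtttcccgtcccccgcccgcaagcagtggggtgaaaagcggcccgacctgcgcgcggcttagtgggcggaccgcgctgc

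Several ER chaperones and folding enzymes, led by Hspa5, Pdia3 and Hsp90b1, fell with diosmin, and none of the sensors and regulators of the unfolded protein response passed the test. Of the 50 genes, 49 had enough counts to be tested. Of these, 9 fell and none rose, at an adjusted p under 0.05 in edgeR's quasi-likelihood test of all 13533 genes. That is 18.4% lower, where 1.78% of all tested genes were called lower and 1.17% higher. Lower values were found for 45 of the 49, against 49.5% of all tested genes, and the median log2 fold change (IVS_diosmin minus IVS) was -0.55 against 0.01 over all tested genes. In 34 of the 49, both diosmin libraries lay below both IVS libraries, which 24.1% of all tested genes did. In 2 they lay above (Ssr3 and Ddit3), as in 23.4% of all tested genes. With library totals only, they lay above in 0 of the 49 and in 2042 of all 13533 tested genes. On that scale they lay below in 71.4% of the 49 and in 28.8% of all tested genes. Sdf2l1, a partner of the BiP chaperone cycle, was the gene not tested, with 3 and 24 counts in IVS and 6 and 10 with diosmin.

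These calls rested on particular libraries. None of the 9 passed without IVS replicate 2 (adjusted p from 0.0603 to 0.239) or without IVS_diosmin replicate 1 (0.0937 to 0.288), fits in which 0.423% and 0.0766% of all tested genes were called lower. Fits without IVS replicate 1 and without IVS_diosmin replicate 2 were also run, and all 9 kept their direction. The log2 fold changes of the 9 stayed between -1.72 and -0.79 in these fits.

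**Figure D1:**
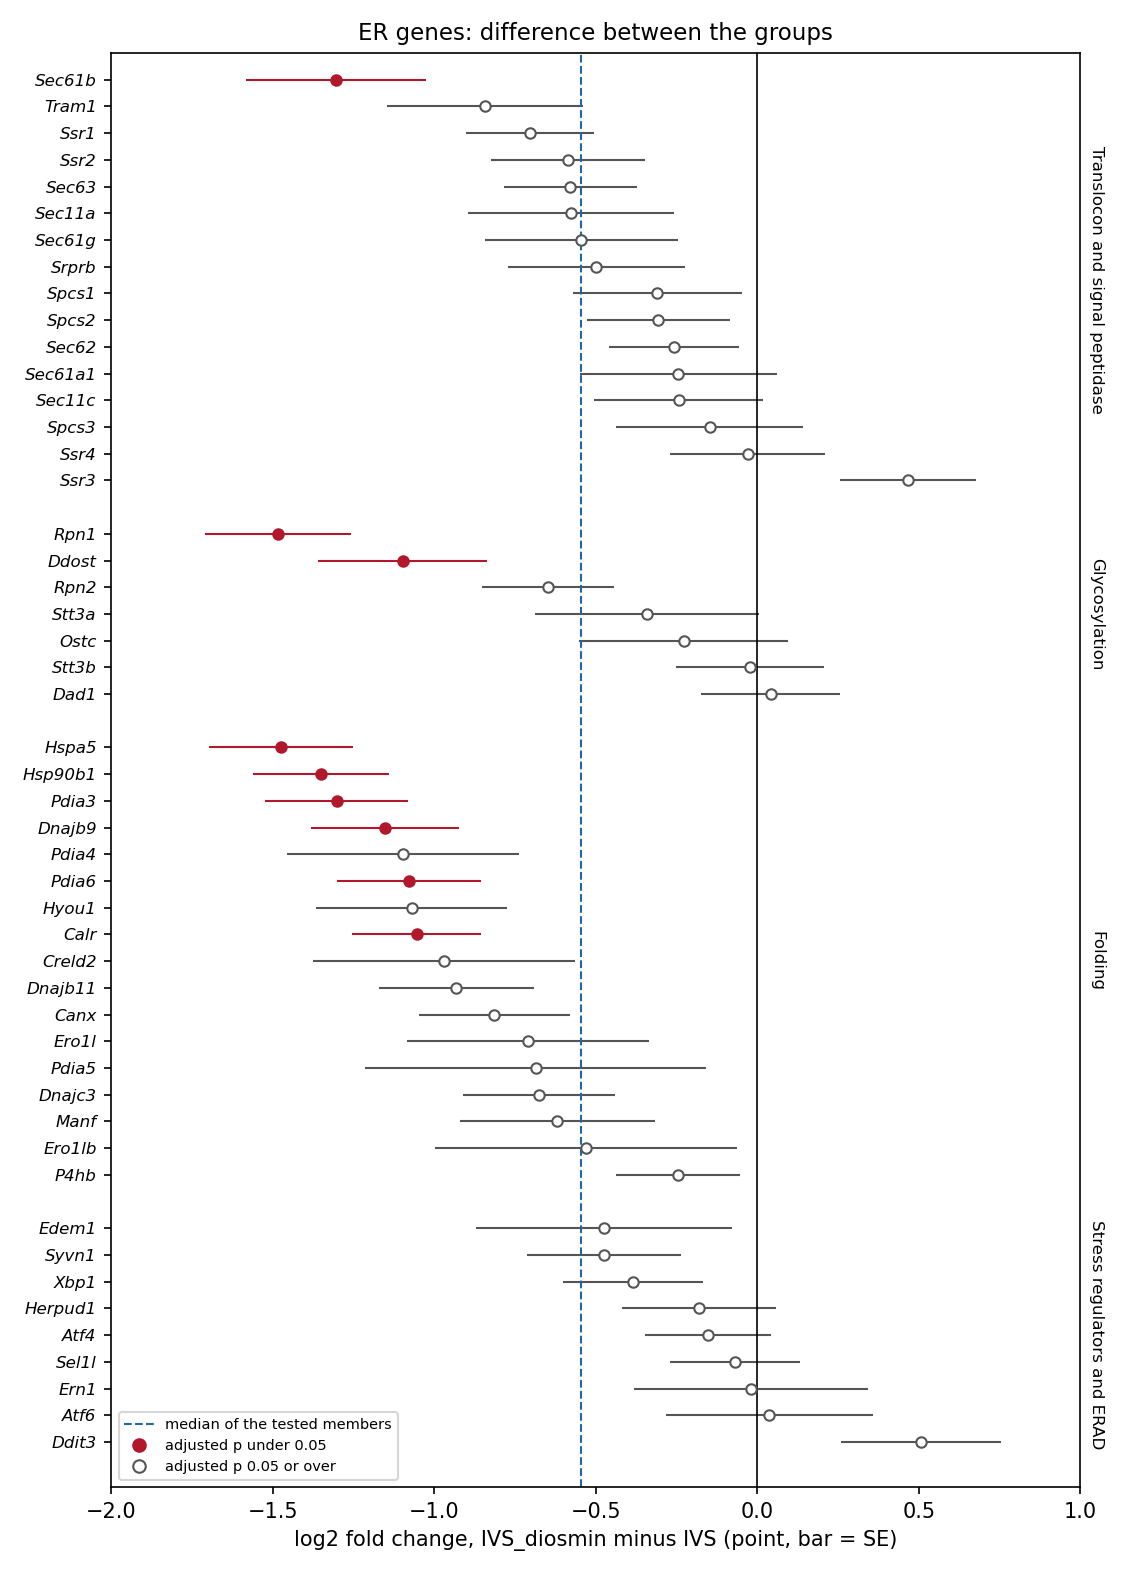
Log2 fold change of each of the 49 tested genes (horizontal axis, IVS_diosmin minus IVS, point with its standard error) by role. Filled red points passed an adjusted p of 0.05, open points did not, and the dashed line is the median of the 49, -0.55; all 17 folding genes lie left of 0, as do 7 of the 9 regulators, none of which passed.

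The folding genes were lowest as a role. All 17 tested members had both diosmin libraries below both IVS libraries, as did 24.1% of all tested genes. Of the 17, 6 fell, where 1.78% of all tested genes did, and the median log2 fold change was -0.97. Levels per kilobase of exon over all 18 folding genes summed to 165.5 and 202.4 in the IVS libraries and to 96.3 and 95.2 with diosmin (CPM per kilobase). The diosmin mean was thus 52.1% of the IVS mean. The 2 diosmin libraries were close to each other, and the 2 IVS libraries differed by more. The same libraries carried the lower rRNA share, Rn7sk and endothelial sums given above.

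Hspa5 (ENSMUSG00000026864.13, chromosome 2, 34771970 to 34777547) codes for BiP, the HSP70 of the ER, which binds unfolded chains and holds the stress sensors inactive. IVS replicates 1 and 2 had 79.5 and 113 CPM of it, and diosmin replicates 1 and 2 had 34.4 and 34.9 CPM. The groups were separate, and the lower IVS value was over 2 times the higher diosmin value; the fall was 2.78-fold (log2 -1.47 ± 0.22 SE, adjusted p = 0.00506). Hsp90b1 (chromosome 10, 86690209 to 86705509), the HSP90 of the ER, had 65.9 and 83.5 CPM in IVS and 28.1 and 30.4 CPM with diosmin, and fell 2.55-fold (log2 -1.35 ± 0.21, adjusted p = 0.00622). Of its exon bases, 10.3% lie opposite the pseudogene 1810014B01Rik, which had 669, 469, 390 and 374 counts of its own in IVS replicates 1 and 2 and diosmin replicates 1 and 2, so reads in the shared stretch cannot be assigned without strand. Dnajb9, a J-domain partner that delivers clients to BiP, was at 23.7 and 29.1 against 11.2 and 12.5 CPM, and it fell by 1.15 on the log2 scale (SE 0.23, adjusted p = 0.0214).

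The other chaperones had lower values that missed the threshold in edgeR's test. Dnajb11, another J-domain partner of BiP, came nearest (log2 -0.93 ± 0.24, adjusted p = 0.0599), followed by Hyou1, a nucleotide exchange factor of BiP (-1.07 ± 0.30, 0.0761). Dnajb11 passed with DESeq2 (0.0401), with library totals only (0.0347) and without the low-count filter (0.00506), and Hyou1 passed without that filter (0.0266). Dnajc3, which restrains the eIF2α kinases, was at -0.68, Creld2 and Manf, small secreted or luminal proteins induced by ER stress, at -0.97 and -0.62, with adjusted p from 0.158 to 0.330.

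Calr (chromosome 8, 84841850 to 84846934) codes for calreticulin, the soluble lectin chaperone and calcium store of the ER lumen. Its levels were 111 and 127 CPM in IVS and 57.8 and 56.6 CPM with diosmin, a 2.08-fold fall (log2 -1.06 ± 0.20, adjusted p = 0.0166). Canx, its membrane-bound relative calnexin, was at 39.2 and 55.8 against 23.8 and 30.1 CPM, short of the threshold (log2 -0.81 ± 0.23, adjusted p = 0.0900; 0.0128 without the low-count filter). Both lectins were lower in each diosmin library than in either IVS library, as were 24.1% of all tested genes. GENCODE names a pseudogene, Calr-ps, for the former, and reads that fit both places are not among the gene counts.

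Of the 7 disulfide enzymes, 2 fell, where 1.78% of all tested genes did. Pdia3 (chromosome 2, 121413775 to 121438687), the isomerase that works with calnexin and calreticulin on glycoproteins, was at 44.7 and 54.4 CPM in IVS and at 22.4 and 17.8 CPM with diosmin (log2 -1.30 ± 0.22, adjusted p = 0.00977). Pdia6, an isomerase that also attenuates IRE1 and PERK signalling, was at 27.6 and 34.0 against 13.6 and 15.5 CPM (log2 -1.08 ± 0.22, adjusted p = 0.0261). Pdia4 had a log2 fold change of the same size (-1.10) with a wider error of 0.36, at 2.92 to 7.07 CPM, and did not pass (0.134). P4hb, the classical protein disulfide isomerase and the beta subunit of prolyl 4-hydroxylase, was the folding gene with the smallest difference: 81.8 and 85.1 CPM in IVS and 71.6 and 69.0 CPM with diosmin (log2 -0.25 ± 0.19, adjusted p = 0.583). The oxidases Ero1l and Ero1lb, which pass electrons from the isomerases to oxygen, were at -0.71 and -0.53, both under 6 CPM, with adjusted p = 0.372 and 0.639.

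**Figure D2:**
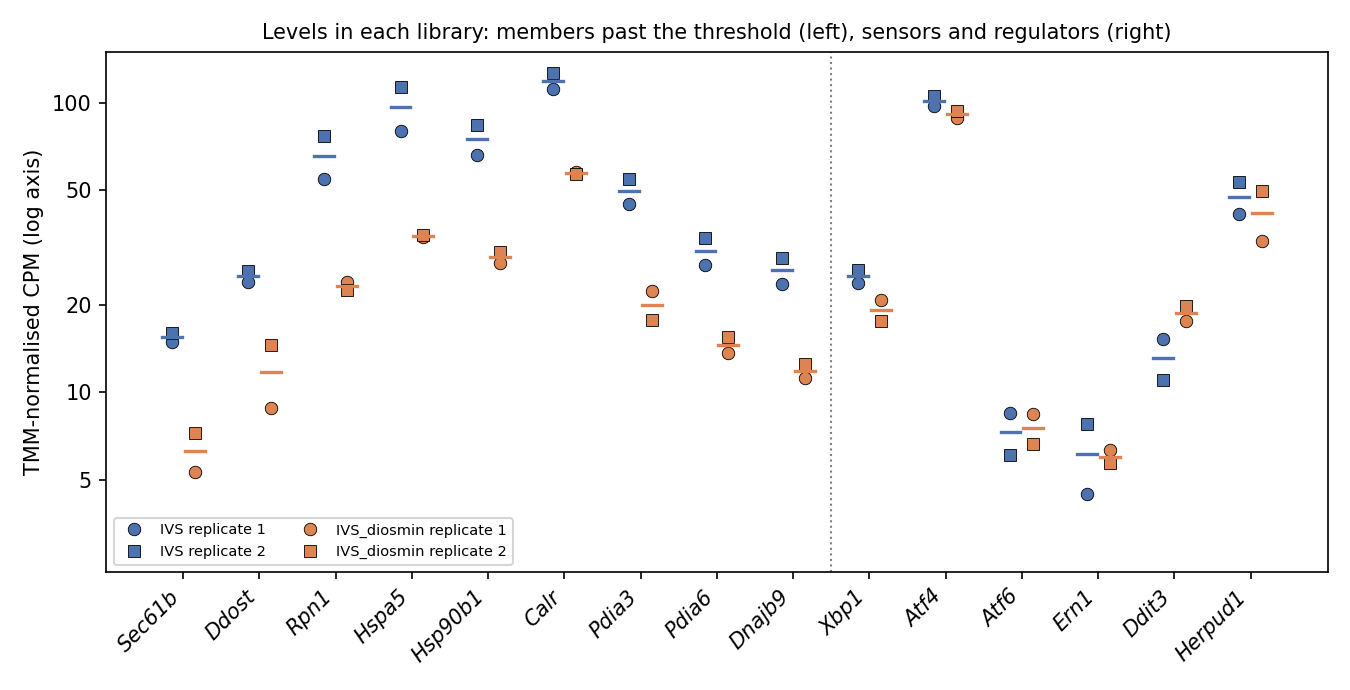
TMM-normalised CPM (log axis) of the 9 genes past the threshold (left of the dotted line) and of 6 sensors and regulators (right) in each of the 4 libraries, with short lines at the group means. On the left every orange diosmin point lies below both blue IVS points; on the right Atf4 stays between 88.6 and 105 CPM in all 4 libraries, and Atf6, Ern1 and Herpud1 overlap.

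The oligosaccharyltransferase moves a preassembled sugar tree from a lipid onto the growing chain; STT3A and STT3B are its alternative catalytic subunits and the others are accessory. Of the 7 genes, 2 fell, where 1.78% of all tested genes did, and the median was -0.34. Rpn1, ribophorin I, which presents substrates to the catalytic subunit (chromosome 6, 88084482 to 88105304), stood at 54.3 and 76.5 CPM in IVS and at 24.1 and 22.6 CPM with diosmin. Its fall of 2.80-fold had the largest log2 size among the 49 tested genes (-1.49 ± 0.23, adjusted p = 0.00530). Ddost, a stabilising subunit (chromosome 4, 138304730 to 138312628), was at 24.0 and 26.3 against 8.87 and 14.6 CPM (log2 -1.10 ± 0.26, adjusted p = 0.0433). The groups did not overlap in either gene.

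The catalytic subunits did not pass. The diosmin values of Stt3b, 43.9 and 64.7 CPM, lay on either side of its IVS values (log2 -0.02 ± 0.23, adjusted p = 0.977). Stt3a, at 7.95 and 6.34 against 4.39 and 6.87 CPM, overlapped as well (-0.34 ± 0.35, 0.692). Dad1, a small subunit named as a defender against cell death, had the highest log2 fold change of the role, at 19.4 and 20.2 against 19.2 and 21.5 CPM (log2 0.04 ± 0.22, adjusted p = 0.956), and its direction turned when library totals alone set the scale (-0.07) and without IVS_diosmin replicate 2 (-0.06). Rpn2, the partner of Rpn1, was lower in both diosmin libraries without passing (-0.65 ± 0.20, 0.118), and 5.5% of its exon bases lie opposite Mroh8 (1 to 31 counts). Ostc was at -0.23 (0.796). Whether Rpn1 and Ddost differed from the catalytic subunits in their response was not tested.

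In the translocon, 1 of 16 genes fell and 15 had lower values, against 1.78% and 49.5% of all tested genes. The median was -0.40. Sec61b, the beta subunit of the SEC61 channel (chromosome 4, 47474658 to 47483242), was at 15.0 and 16.1 CPM in IVS and at 5.32 and 7.22 CPM with diosmin, 2.47-fold lower (log2 -1.30 ± 0.28, adjusted p = 0.0282). Sec61a1, which forms the pore itself, was at 8.69 and 7.64 against 7.63 and 6.18 CPM and did not pass (-0.24 ± 0.31, 0.765). Of its exon bases, 8.2% lie opposite the antisense gene Gm44170, which had 75, 81, 42 and 37 counts in the same library order. Sec61g, the gamma subunit, was at -0.55 (0.397). The subunits of 1 channel thus had differences from -1.30 to -0.24, and the difference between them was not tested. Sec62 and Sec63, which take part in import after translation, were at -0.26 and -0.58. Tram1, a channel-associated protein, was at -0.84 with the IVS libraries at 10.1 and 16.2 CPM. All 6 channel genes had both diosmin libraries below both IVS libraries, as did 24.1% of all tested genes.

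The translocon-associated protein complex, which helps weak signal sequences engage the channel, had no member past the threshold in edgeR's test, and its values pointed both ways. Ssr1, its alpha subunit, came nearest to the threshold (58.3 and 55.1 against 34.6 and 35.0 CPM, log2 -0.70 ± 0.20, adjusted p = 0.0805), and it passed with DESeq2 (0.0488) and without the low-count filter (0.0419). Ssr3, the gamma subunit, leaned the other way, at 53.7 and 55.7 CPM in IVS and 64.1 and 87.0 CPM with diosmin (0.47 ± 0.21, 0.288). Ssr4 was at -0.03 and Ssr2 at -0.59. The 5 signal peptidase genes (Spcs1, Spcs2, Spcs3, Sec11a and Sec11c) ranged from -0.58 to -0.15 with adjusted p from 0.401 to 0.859. In 1 of them, Sec11a, both diosmin libraries lay below both IVS libraries, as in 24.1% of all tested genes. Spcs1 shares 16.3% of its exon bases with Glt8d1 on the other strand. Srprb, which anchors the receptor of the signal recognition particle, was at -0.50 (0.398).

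None of the 9 stress regulators and ERAD genes passed (smallest adjusted p = 0.328; none had an unadjusted p under 0.05; DESeq2 and limma-voom also called none), and the median was -0.15. Atf4, the factor translated when eIF2α is phosphorylated, had the highest level per kilobase of all 50 genes. It stood at 97.3 and 105 CPM in IVS and 88.6 and 93.5 CPM with diosmin (log2 -0.15 ± 0.19, adjusted p = 0.774). Xbp1, whose mRNA IRE1 splices, was at 23.9 and 26.4 against 20.8 and 17.7 CPM (-0.38 ± 0.22, 0.411); gene counts do not separate its spliced from its unspliced form. Both diosmin values were below both IVS values in each of these factors, by less than the test could call.

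The sensors were low, and Atf6 and Ern1 overlapped between groups. Atf6, the sensor that becomes a transcription factor when cut in the Golgi, was at 8.52 and 6.09 CPM in IVS and 8.40 and 6.66 CPM with diosmin (0.04 ± 0.32, 0.974). Ern1, which codes for IRE1, was at 4.46 and 7.80 against 6.32 and 5.69 CPM (-0.02 ± 0.36, 0.986). The direction of both turned in other fits, with values from -0.18 to 0.30 for Atf6 and from -0.38 to 0.42 for Ern1 when 1 library was left out. Eif2ak3, which codes for PERK and is named outside the rule for named genes, was at 2.12 and 3.33 against 2.00 and 1.53 CPM, lower in both diosmin libraries without passing (-0.62 ± 0.52, 0.619). Ddit3, the factor CHOP that ATF4 induces in prolonged stress, was one of 2 genes with higher values in both diosmin libraries: 15.3 and 11.1 CPM in IVS and 17.7 and 19.9 CPM with diosmin (0.51 ± 0.25, 0.328). It shares 4.0% of its exon bases with Mars on the other strand, which had 427 to 701 counts. A further 6.1% overlap another GENCODE entry named Ddit3 on the same strand, which had 0 counts in every library.

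ERAD pulls misfolded proteins back to the cytosol for the proteasome. Herpud1, which organises the ubiquitin ligase complex and is among the strongest ER stress targets, was at 41.2 and 53.1 CPM in IVS and 33.4 and 49.7 CPM with diosmin, with overlap (-0.18 ± 0.24, 0.782); it was at 0.01 without IVS replicate 2 and at 0.08 without IVS_diosmin replicate 1. Syvn1, the ligase HRD1, was at -0.47 (0.346), Edem1, which marks glycoproteins for removal, at -0.47 (0.614), and Sel1l, the adaptor of HRD1, at -0.07 (0.913). The levels of the 9 regulators per kilobase summed to 84.0 and 91.9 in IVS and 76.6 and 86.0 with diosmin, 92.4% of the IVS mean. Atf4 (41.3 and 44.6 in IVS) and Herpud1 (17.6 and 22.8) made up most of this sum, so it says little about the other regulators. The ratio of the folding sum to the regulator sum does not depend on library scaling. It was 1.97 and 2.20 in IVS and 1.26 and 1.11 with diosmin, and this ratio was chosen after the levels were seen. Whether the 2 roles differed was not tested.

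**Figure D3:**
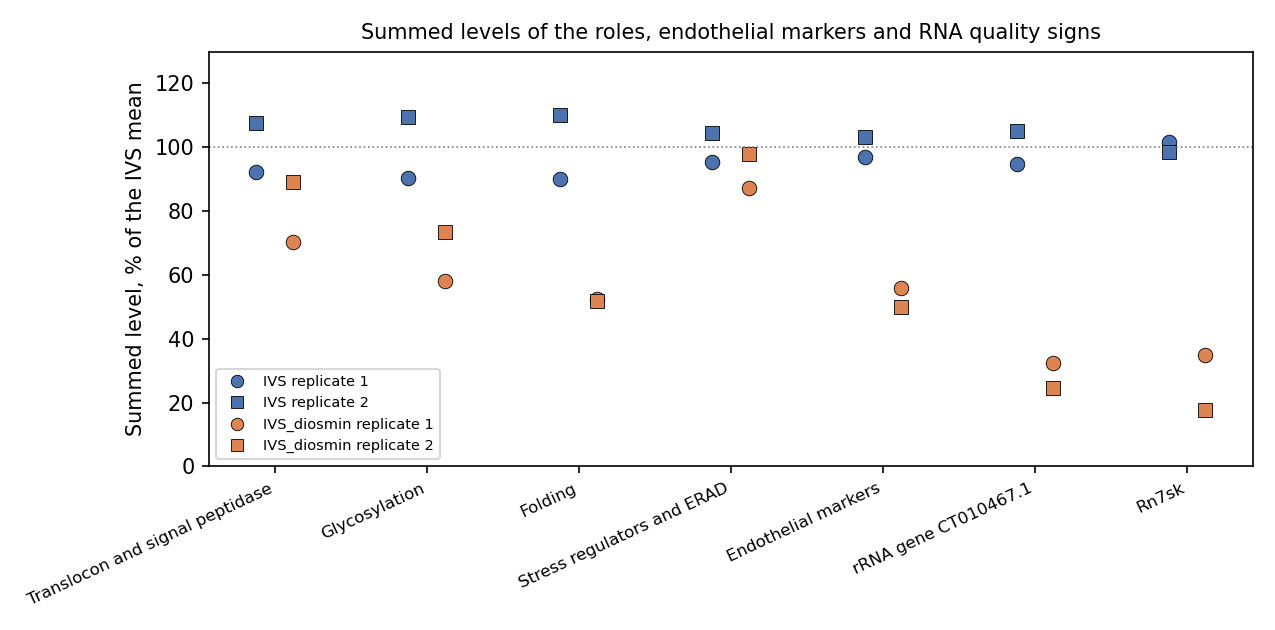
Summed level per library as a percentage of the IVS mean: the 4 roles (CPM per kilobase), 10 endothelial markers, the rRNA gene CT010467.1 and Rn7sk (CPM). The diosmin libraries are near 52.1% for folding and overlap the IVS libraries for the stress regulators, and the last 3 items are lower in the same libraries.

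The element in the promoter did not separate these genes fully by their values. Of the 9 genes with the full element all had lower values and 4 fell (Hspa5, Hsp90b1, Calr and Pdia6), with a median of -0.97. Among all tested genes, 49.5% had lower values and 1.78% were called lower. Of the 31 tested genes with a promoter entry and no full element, 5 fell, among them Rpn1, Pdia3 and Dnajb9, with a median of -0.475. The 9 other genes of the genome that had the element and enough counts had a median of 0.21; none fell, and 2 rose (Acacb, an acetyl-CoA carboxylase, by 1.14, adjusted p = 0.0166, and Xlr3b by 2.77, adjusted p = 0.0242, a gene with near-identical copies whose count is uncertain). Acacb missed in 3 of the 4 fits without 1 library (0.0766 to 0.176, passing without IVS_diosmin replicate 2), and Xlr3b in 3 (0.0548 to 0.138, passing without IVS replicate 2). The 2 genes with the shorter element, Herpud1 and Dnajb11, were at -0.18 and -0.93. These differences were not tested. Among the 9 other genes, 4 were scarce: Adcy3 (0.569 to 2.39 CPM), Spats2l (0.694 to 1.77), Xlr3a (0.686 to 2.08) and Zfp57 (1.32 to 4.86). Ero1lb, a listed gene with the element, was scarce too (1.93 to 3.82). Low counts limit what the test can call in such genes.

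Other motifs of the response were searched in the same windows. The bare CCACG, which is also part of both elements, was in 33 of the 41 genes (80.5%) and in 35.5% of all genes. GACGTG, the core that XBP1 binds, was in 9 of 41 (22%) against 7.15% of all genes, and the longer TGACGTGG, which contains it, in 0 of 41 against 0.714%. TGATGNAAT, a form of the site used by ATF4 and its partners, was in 0 of 41 against 1.08%. Base composition of the windows was not matched in these shares.

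**Figure D4:**
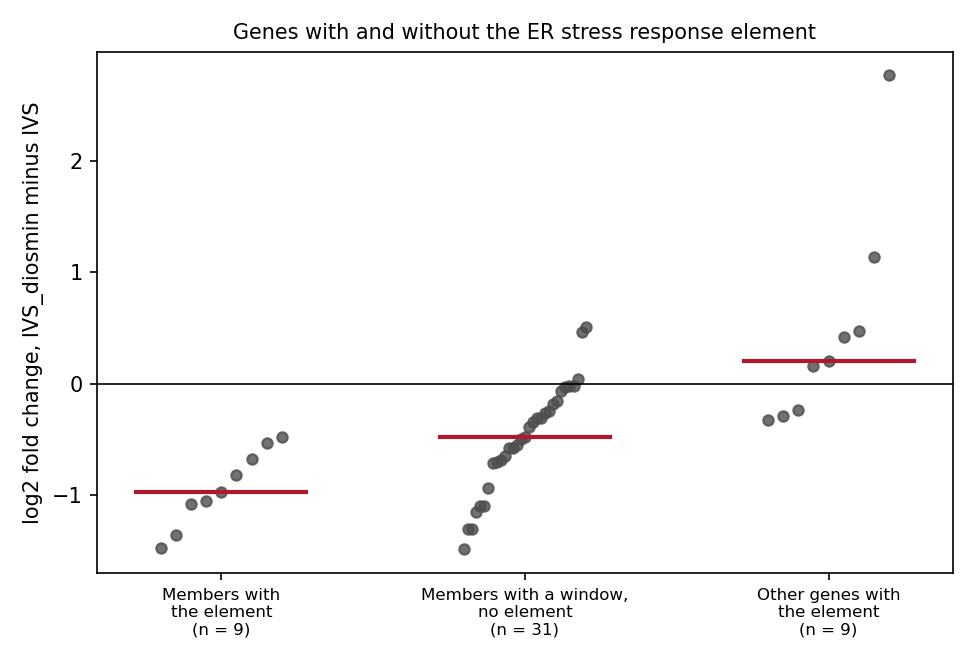
Log2 fold change (vertical axis, IVS_diosmin minus IVS) of the 9 listed genes with the full element, of the 31 tested genes with a promoter entry and no full element, and of 9 other tested genes with the element. Each point is a gene and the red line is the median, at -0.97, -0.475 and 0.21.

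Lists of other genes of the same pathways had medians from -0.63 to -0.00. Over all tested genes, 49.5% had lower values, 1.78% were called lower and 1.17% were called higher. Where 1 gene of a list was called, it is given for that gene and not as a result about the list. Among 27 other folding enzymes, 24 had lower values, with a median of -0.63, and 1 fell. This was Serpinh1, the collagen chaperone HSP47, at 47.2 and 60.6 against 24.0 and 17.8 CPM (log2 -1.37 ± 0.23, adjusted p = 0.00977). Among 14 genes of glycan transfer and trimming, 1 fell, Prkcsh, the beta subunit of glucosidase II, at 21.1 and 34.7 against 12.6 and 10.8 CPM (-1.25 ± 0.27, 0.0282), with a list median of -0.34. Among 23 tested ERAD genes, Selenos, a selenoprotein of the retrotranslocation complex, fell at the margin (15.4 and 25.7 against 6.55 and 10.3 CPM, -1.28 ± 0.31, 0.0497), and the median was -0.11. Without IVS replicate 2 none of these 3 passed (0.0940 to 0.391), and without IVS_diosmin replicate 1 none did (0.0848 to 0.337). Without IVS_diosmin replicate 2, Prkcsh missed (0.129).

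None of 19 other translocation and insertion genes passed (median -0.31; the smallest adjusted p, 0.130, was that of Emc10, a subunit of the membrane insertase EMC). None of 7 tested genes of the signal recognition particle and its receptor passed (median -0.00, with Srpr smallest at 0.529), and none of 16 sensors and transducers did (median -0.06, with Creb3 at 0.168). Unadjusted p-values under 0.05 numbered 3, 0 and 3 in these lists; the other tools were not counted for them. Of 25 tested ATF4 targets, 1 rose and none fell, with a median of -0.24. The gene that rose was Eif4ebp1, a brake on cap-dependent translation, at 18.1 and 22.2 against 39.8 and 52.4 CPM (1.20 ± 0.23, adjusted p = 0.0169), and it missed in every fit without 1 library (0.0761 to 0.0876).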

How the data were processed

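Poly(A) RNA of 4 muscle samples was sequenced from NEBNext Ultra libraries, per the labels' protocols, which do not describe the kit as keeping the strand. Each deposited file holds whole-number read counts for the genes of 1 library. The tools were HISAT2 2.1.0 and HTSeq with the mm10 genome, per the submitters' processing notes; strand setting and annotation release are not given in the sources used here. Of the reads, 24.9% to 27.7% were counted on genes. The summary lines, which name no gene, stayed out of library sizes (no feature 25.9% to 29.7%, more than 1 place 37.7% to 45.6%, not aligned 1.42% to 2.89%). Replicates differed by more than sampling noise (chi-square per degree of freedom 28.6 in IVS and 19.7 in IVS_diosmin).

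Symbols, positions and merged exon lengths came from GENCODE M21 (55141 identifiers matched without version); where genes shared a symbol, the one with more counts carried it. In edgeR 4.0.16 (R 4.3.3), filterByExpr left 13533 genes, TMM set the scale, and a robust quasi-likelihood test of IVS_diosmin minus IVS was 2-sided with Benjamini-Hochberg adjustment over all tested genes (threshold 0.05; biological coefficient of variation 0.235). All adjusted p-values are from this test unless another tool is named. The SE is the log2 fold change over the square root of F. An exact permutation test of 1 gene, 2 libraries against 2, cannot go below 0.333. The procedure was tested on simulated data. Levels are TMM-normalised CPM, and levels between genes are CPM per kilobase of exon. Values in every library are given for members past the threshold, the extremes of each role and 11 preset genes; pathway genes are named if past the threshold, otherwise by smallest p. The members and lists were chosen with earlier results of these data known. The rRNA gene CT010467.1 was added as a quality sign after the data were seen. Promoter sequences are from RefSeq (GRCm38.p6); protein sequences were not used here. Alternatives were other scalings, no filter, DESeq2 1.42.0, limma-voom 3.58.1, a replicate block and leaving out each library.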

Additional observations from a re-analysis of the deposited data

Results flagged for a closer look

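Reads that aligned to more than 1 place lie outside the gene counts, and their share was higher in both diosmin libraries. It was 37.7% and 38.8% in IVS replicates 1 and 2 and 45.6% and 43.6% in IVS_diosmin replicates 1 and 2. Reads of genes with near-identical copies fall there. Among the 50 ER genes, GENCODE names such copies for Calr and Spcs2 by symbol. How many of their reads were lost this way was not tested.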

How the results depend on the processing

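The count of ER genes called lower was 9 and stayed at 9 to 13 with RLE, upper-quartile and total-count scaling, without the low-count filter, with DESeq2, with limma-voom and with quality and slow fibre genes left out before scaling, and in each of these the 9 genes were among those called. It was 2 with the replicate block and 0 to 8 when 1 library was left out. No ER gene was called higher in any fit run (0 in each). The median log2 fold change was -0.55 in the fit reported, and from -0.73 to -0.44 when 1 library was left out. Over all genes, 400 were called (159 higher, 241 lower). The count was 919 without the low-count filter, 93 with the replicate block and 38 to 366 when 1 library was left out. With library totals only, the median of all genes shifted to -0.11 and the split became 115 higher and 337 lower.

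The labels give replicates 1 and 2 in both groups but do not say that a number marks a shared animal or day. Deviations of same-numbered libraries from their group means correlated at 0.01 over genes. That check gave no sign of pairing, but with 2 libraries per group it cannot exclude a shared animal or day. Hspa5 and Hsp90b1 passed with the block (both 0.0481), and the other 7 ER genes did not (0.0581 to 0.114). Of the other called genes named, Serpinh1, Prkcsh, Selenos, Eif4ebp1 and Acacb did not pass with it (0.0709 to 0.136), and Xlr3b did (0.0481).

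Of the 21 ER genes named by the rule, direction turned in 4, which passed in none of these fits. Among the others, Ssr4, Spcs3, Stt3b and Ostc turned when 1 library was left out. Dad1 was at -0.071 with library totals only, and from -0.060 to 0.12 when 1 library was left out. Atf6 was at -0.10 with library totals only, and from -0.18 to 0.30 when 1 was left out. Ern1 was at 0.020 with the replicate block and at 0.077 with limma-voom, and from -0.38 to 0.42 when 1 was left out. Herpud1 was from -0.51 to 0.078 when 1 was left out. The cause was not tested. Leaving out a library leaves 1 in its arm, which is assumed to vary like the other group. Depth limits the scarce genes: Pdia5, at 1.31 to 2.76 CPM, had a standard error of 0.53, against 0.22 for Hspa5.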
